A study of Mus musculus with 80 samples.

Results

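The kidneys of control mice were compared with 3 other organs of the same cohort to find the transcripts that marked the whole organ. The kidney was represented by 6 arrays, 3 of kidney cortex and 3 of kidney medulla, out of 15 control arrays and 80 arrays in the whole series, and it was set against 3 control arrays each of liver, lung and spleen. All animals were adult female BALB/c nude mice of the CAnN.Cg-Foxn1nu/Crl strain, which lack a normal thymus. The control mice received no astatine (0 kBq): per the methods they were injected with phosphate-buffered saline, per the design drawing with physiological saline, and they were killed after 24 h. The other arrays came from mice injected intravenously with the alpha emitter 211At as 1.7 kBq and killed at 1 h, 6 h or 7 days (3 mice each), as 105 kBq and killed at 1 h (2 mice), or as 7.5 kBq and killed at 6 h (2 mice). Total RNA of each tissue was hybridised to Illumina MouseRef-8 BeadChips with 25697 probes, and all values are the log2 of the deposited normalised signal. The labels do not say which samples came from the same mouse, so p-values measure the spread between these arrays. Per the methods there were 3 control mice whose kidneys were dissected into cortex and medulla, so the 6 kidney arrays came from 3 animals.

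The kidney filters plasma in glomeruli and then reclaims most of the filtrate along the nephron. The proximal tubule takes back phosphate, glucose, amino acids and peptides and secretes organic ions, the loop of Henle builds the medullary salt gradient, and the distal tubule and collecting duct set the final salt, acid and water content of urine. The tubules also make and break down hormones, and their transport work is fuelled mainly by mitochondrial respiration.

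A transcript was called kidney-specific if its mean over cortex and medulla was higher than in liver, in lung and in spleen in all 3 comparisons (limma, Benjamini-Hochberg adjusted p under 0.01 and at least 1.5-fold), and if the cortex mean and the medulla mean were each at least 1.5-fold above each other tissue and above the background cutoff of 6.856. Of 17677 probes kept after a filter on low values, 749 met this rule (4.24%), of which 709 had a symbol and named 587 genes, and 40 had none. In 211 probes (1.19%) kidney was lower than in all 3 tissues, and 184 (1.04%) met the mirror rule, with both regions low. The probes that met a rule were chosen by these differences, which are therefore given as a description, and the promoter letters and the arrays of exposed mice were not used to choose them. The regions entered the rule, since each had to exceed every other tissue. The contrast of cortex with medulla was not a criterion. The rule still limits this contrast, since probes that missed the fold in 1 region were removed. A whole tissue piece was hybridised, so fewer cells of a type and less RNA per cell cannot be told apart.

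The promoter sequences of 4 of the strongest kidney genes are shown because each carries the letters GTTAAT, part of the site bound by the hepatocyte nuclear factor 1 proteins, which act in kidney tubule and liver. The genes are Umod, Slc34a1, Hsd3b4 and Cltrn, and each stretch is the 250 bases before the first listed start of the gene (RefSeq, GRCm38.p6), printed 5′ to 3′ on the strand of the gene with GTTAAT or its reverse complement ATTAAC in capitals. Umod, at chr7:119479263-119479512 on the minus strand, held 1 match at position -202, counted from the start of transcription. Slc34a1, at chr13:55399398-55399647 on the plus strand, held 2 matches at -89 and -61. Hsd3b4, at chr3:98510568-98510817 on the minus strand, held 2 at -128 and -26, and Cltrn, at chrX:164089937-164090186 on the plus strand, held 2 at -73 and -54.
Umod: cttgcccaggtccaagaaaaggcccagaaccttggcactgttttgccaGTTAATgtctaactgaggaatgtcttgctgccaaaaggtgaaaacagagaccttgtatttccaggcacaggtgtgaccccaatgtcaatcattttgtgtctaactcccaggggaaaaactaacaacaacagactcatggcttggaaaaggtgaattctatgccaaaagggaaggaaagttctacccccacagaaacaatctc
Slc34a1: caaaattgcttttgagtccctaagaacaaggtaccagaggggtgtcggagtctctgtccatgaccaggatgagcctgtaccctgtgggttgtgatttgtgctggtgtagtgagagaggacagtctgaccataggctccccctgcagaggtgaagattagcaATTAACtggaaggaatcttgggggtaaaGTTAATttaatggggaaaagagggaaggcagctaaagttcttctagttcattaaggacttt
Hsd3b4: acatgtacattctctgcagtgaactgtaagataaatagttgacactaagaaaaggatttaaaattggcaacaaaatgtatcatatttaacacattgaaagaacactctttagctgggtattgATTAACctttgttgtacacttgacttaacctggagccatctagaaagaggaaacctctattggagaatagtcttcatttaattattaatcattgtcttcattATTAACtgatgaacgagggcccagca
Cltrn: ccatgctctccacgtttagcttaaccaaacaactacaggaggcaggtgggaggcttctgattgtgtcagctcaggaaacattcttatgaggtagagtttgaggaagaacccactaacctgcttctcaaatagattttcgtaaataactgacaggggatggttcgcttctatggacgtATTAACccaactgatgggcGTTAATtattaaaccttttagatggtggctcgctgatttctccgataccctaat

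Both strands of the same window, the 250 bases before the first listed start, were searched in every kept gene with a listed promoter. GTTAAT was found in 39 of 452 kidney-specific genes (8.63%), in 446 of all 9594 kept genes (4.65%) and in 4 of 112 kidney-low genes (3.57%). AAGGTCA, letters bound by some nuclear receptors, was found in 20 kidney-specific promoters (4.42%) against 301 of all promoters (3.14%), and the TATA box letters TATAAA in 34 (7.52%) against 783 (8.16%). Among the 20 genes described next, 16 had a listed promoter, of which 6 held GTTAAT (Umod, Slc34a1, Hsd3b4, Cltrn, Miox and Dnase1), 2 held AAGGTCA (Klk1 and Wfdc15b) and 3 held TATAAA (Kap, Miox and Dnase1). None of the 3 motifs is contained in another, though neighbouring matches can share a letter. A match describes the letters in the window and not a bound site.

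The arrays of the kidney were alike and stood apart from the other tissues. Any pair of the 6 kidney arrays correlated at 0.96 or above over the kept probes, whereas a kidney array correlated at 0.728 to 0.752 with a liver array, 0.751 to 0.779 with a lung array and 0.684 to 0.715 with a spleen array. The labels held against markers of the other tissues. The 16 hepatocyte markers averaged 7.23 to 7.39 on kidney arrays against 13.04 to 13.13 on liver arrays, with 7 of them at background on all 6 kidney arrays, and the 13 lung epithelium markers averaged 6.95 to 7.00 on kidney arrays against 12.12 to 12.39 on lung arrays. Control arrays numbered 1 had the highest mean of the 10 neutrophil markers in every tissue (7.43 in cortex, 7.79 in medulla, 10.17 in liver, 11.32 in lung and 13.19 in spleen), against 6.93 and 6.95, 6.99 and 7.06, 7.80 and 8.32, 8.77 and 8.79, and 11.27 and 12.02 on the other arrays of the same tissues. Without the 5 arrays numbered 1, 748 probes were kidney-specific, 701 of them among the 749, and 172 were low, 148 of them among the 184. The 6 adipose markers averaged 7.57 to 9.16 on the cortex arrays and 6.79 to 7.29 on the medulla arrays, against 6.74 to 6.77 in liver, 6.97 to 7.53 in lung and 6.74 to 6.79 in spleen.

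Single comparisons called far more probes than the rule that joined them. Kidney exceeded liver in 2171 probes (12.3%) and was lower in 1712 (9.68%). It exceeded lung in 2267 probes (12.8%) and was lower in 2447 (13.8%), and it exceeded spleen in 2804 (15.9%) and was lower in 3038 (17.2%). In 918 probes (5.19%) kidney was higher in all 3 comparisons, and 169 of these were not kept as kidney-specific because the cortex mean (97 probes) or the medulla mean (72 probes) did not reach 1.5-fold over some other tissue. The second highest tissue of the 749 was liver for 320 probes, lung for 253 and spleen for 176. The smallest of the 3 differences had a median of 1.32 on the log2 scale, with 26 probes at 32-fold or more, 97 at 8-fold or more, 198 at 4-fold or more and 236 under 2-fold. All 9 arrays of the other tissues were at background on 90 of the 749 probes and on 264 of all 17677 kept probes. Such probes passed the filter on low values through kidney arrays alone, so both counts depend on that filter. The median difference of the 749 probes was 1.60 against liver, 1.72 against lung and 1.87 against spleen, beside 0.0085, 0.0011 and -0.017 over all kept probes.

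**Figure D1:**
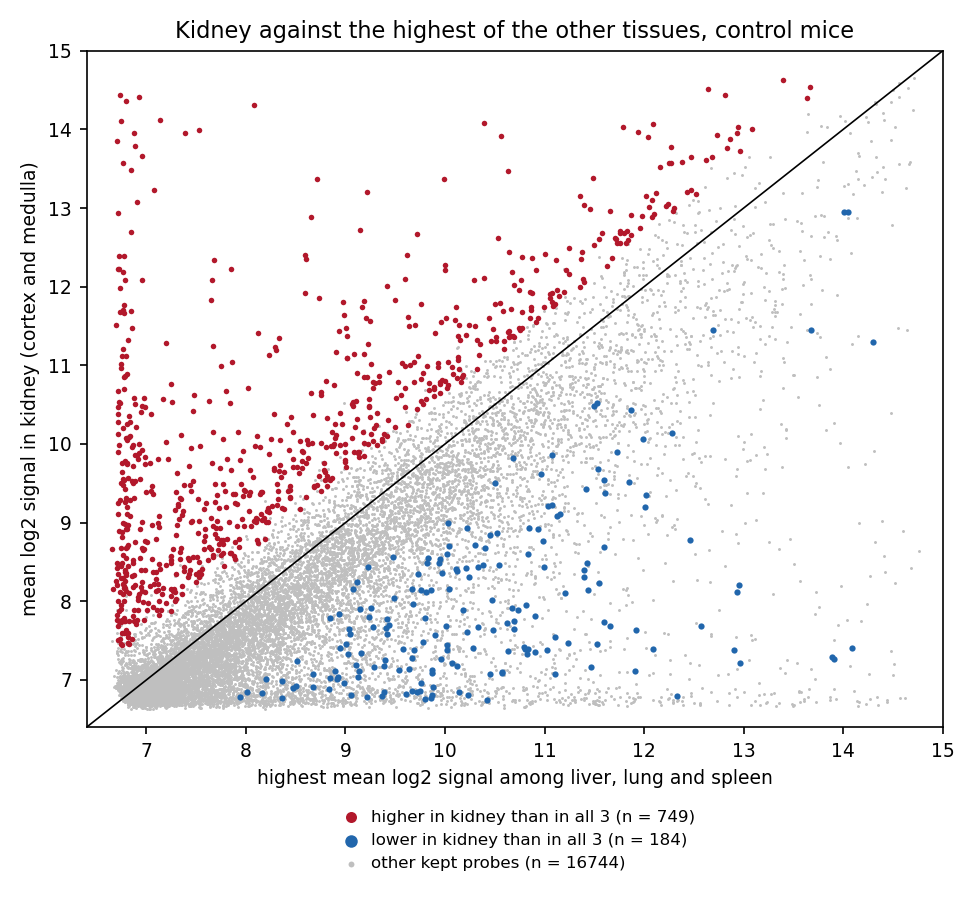
Mean log2 signal of each of the 17677 kept probes in control kidney (mean of the cortex and medulla means) against its highest mean among control liver, lung and spleen (n = 3 arrays a tissue). The 749 kidney-specific probes (red) lie above the line of equality and the 184 kidney-low probes (blue) lie below their highest tissue, with the other kept probes in grey.

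The 20 genes with the widest gap between kidney and the nearest tissue held secreted urinary proteins, transporters and enzymes of the tubules. Umod encodes uromodulin, the most abundant protein of normal urine, made in the thick ascending limb. It read 14.34, 14.17 and 14.14 in cortex and 14.71, 14.57 and 14.71 in medulla, against 6.75, 6.63 and 6.73 in liver, 6.74, 6.65 and 6.65 in lung and 6.83, 6.78 and 6.59 in spleen. All 9 other arrays were not well above background, so that kidney was at least 192-fold higher than each tissue, where a bound is the kidney mean over the background cutoff. The limma adjusted p was at most 3.0e-17 in the 3 comparisons (6 kidney arrays of 3 mice against 3 arrays), and both probes of Umod met the rule. In all such fits cortex and medulla of 1 mouse entered as separate arrays. With the cortex and medulla arrays of 1 number averaged, 734 probes met the rule, all of them among the 749.

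Spink1, a secreted trypsin inhibitor, read 14.28, 14.38 and 14.53 in cortex and 14.40, 14.36 and 14.24 in medulla, against 6.70, 6.85 and 6.68 in liver, 6.79, 6.82 and 6.76 in lung and 6.73, 6.59 and 6.72 in spleen, at least 182-fold higher than each. The cortex and medulla values overlapped, and none of the 9 other arrays was above background. Slc34a1, the sodium phosphate cotransporter of the proximal tubule brush border, read 14.61, 14.67 and 14.59 in cortex and 13.90, 14.40 and 14.30 in medulla, against 6.68, 6.77 and 6.86 in liver, 6.76, 6.73 and 6.68 in lung and 7.23, 6.77 and 6.77 in spleen. Only 1 spleen array, numbered 1, lay clearly above background, and kidney was 7.64 ± 0.12 above liver and 7.49 ± 0.12 above spleen (SE), and at least 188-fold above lung.

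Kap, the kidney androgen-regulated protein of the mouse proximal tubule, varied more among the kidney arrays. It read 13.78, 12.50 and 13.60 in cortex and 14.48, 14.51 and 14.22 in medulla, against 6.61, 6.71 and 6.67 in liver, 6.64, 6.75 and 6.71 in lung and 6.69, 6.58 and 6.61 in spleen, at least 127-fold higher than each. Every medulla array lay above every cortex array, but the region difference of -1.11 ± 0.23 had an adjusted p of 0.012 (limma) and was not called. Cltrn, or collectrin, which carries amino acid transporters to the apical membrane, read 13.60, 13.82 and 14.06 in cortex and 13.15, 13.29 and 13.48 in medulla, at least 105-fold above liver, lung and spleen, where the 9 arrays lay between 6.67 and 6.80. Miox, which opens the ring of myo-inositol, read 14.03, 14.00 and 13.93 in cortex and 12.50, 13.30 and 13.15 in medulla, against 6.81, 6.85 and 6.86 in liver, 6.83, 6.84 and 6.74 in lung and 6.85, 6.75 and 6.86 in spleen.

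The kidney's growth factor and ion transport genes followed the same pattern. Egf, the epidermal growth factor precursor of the distal nephron, exceeded liver by 6.78 ± 0.11, lung by 6.82 ± 0.11 and spleen by 6.71 ± 0.11. Fxyd2, the gamma subunit of the sodium pump, exceeded liver by 7.09 ± 0.08 and spleen by 7.08 ± 0.08 and was at least 138-fold above lung, and its 3 probes all met the rule. Slc12a1, the sodium potassium chloride cotransporter targeted by loop diuretics, was at least 67.9-fold higher than each tissue and all 4 of its probes met the rule.

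Dnase1, which degrades DNA in urine and gut, was at least 46.5-fold higher in kidney than in each tissue, although its 6 kidney arrays spread from 10.82 on medulla array 1 to 13.32 on cortex array 2. Mep1a, a brush border metalloprotease, was at least 41.5-fold higher, Tmem174 at least 37.4-fold, Kl, the klotho coreceptor for FGF23, at least 30.1-fold and Slc7a9, the light subunit of the cystine transporter, at least 28.4-fold. Hsd3b4, a steroid dehydrogenase known from mouse kidney, Wfdc15b and Defb1, a defensin peptide of epithelia, were also among the 20, with smallest differences of 6.91, 6.16 and 5.12, each against liver.

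The 3 remaining genes were of the kallikrein family of serine proteases. Klk1 read 14.76, 14.57 and 14.44 in cortex and 14.05, 13.96 and 14.06 in medulla, against 6.66, 6.90 and 6.59 in liver, 6.85, 6.96 and 7.00 in lung and 7.05, 7.82 and 9.37 in spleen. Spleen was the uneven tissue here, with array 3 far above the other 2, and the same order of the spleen arrays was seen for Klk1b5 (6.84, 7.20 and 8.12) and Klk1b27 (6.76, 7.03 and 7.62). These genes are near-identical copies of one cluster, so how signal divides among their probes is uncertain. The mouse cluster gave 4 kidney-specific genes among 17 kept genes whose symbol begins with Klk.

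**Figure D2:**
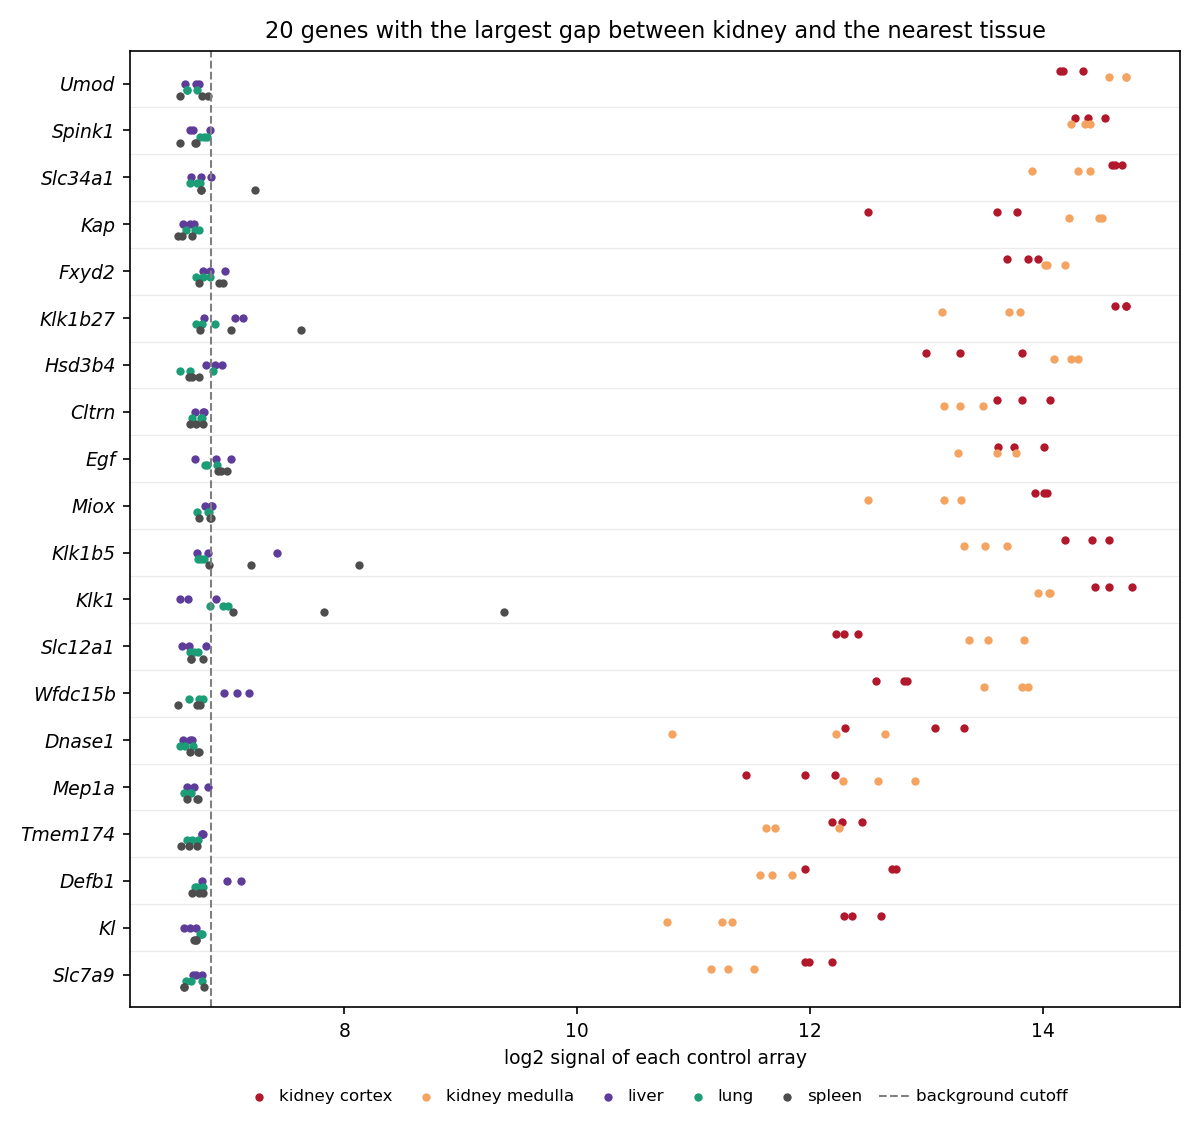
Log2 signal of each of the 15 control arrays (x axis) for the 20 kidney-specific genes with the largest gap to the nearest tissue (y axis), with points coloured by tissue and the background cutoff as a dashed line. Every kidney point lies between 10.77 and 14.76, whereas spleen array 3 for Klk1 (9.37) is the highest of the points from liver, lung and spleen.

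Solute carriers were frequent among the kidney-specific genes. With 1 probe a gene, 566 of 11886 kept genes were kidney-specific (4.76%), and of the 270 kept genes whose symbol begins with Slc, 62 were (23%). The Slc22 organic ion carriers had 10 of 15, the Slc5 sodium-coupled glucose, vitamin and monocarboxylate carriers 6 of 7, the Slc25 mitochondrial carriers 7 of 31 and the Slc7 amino acid carriers 4 of 13. Other prefixes gave 7 of 20 for claudins (35%), 6 of 42 for potassium channel genes (14.3%), 5 of 61 for cytochrome P450 genes (8.2%), 1 of 38 for ABC transporters and 0 of 131 for olfactory receptors. The share by chromosome lay between 3.4% and 6.41%.

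Gene lists were read with 1 probe a gene. Genes that did not pass the filter on low values were left out of the counts, and a gene could pass it through kidney alone. Over all 11886 kept genes, 14.2% were called higher and 10% lower than in liver, 13.6% and 16.2% than in lung, and 17.5% and 19.5% than in spleen, and 0.909% were called higher in cortex and 1.5% in medulla.

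The kept proximal tubule genes of apical uptake were nearly all kidney-specific. The list had 26 genes, of which 20 had a probe and 17 were kept. Of those kept, 8, 12 and 11 were at background in liver, lung and spleen. Of the 17 kept genes for apical uptake, 16 were kidney-specific, and their medians over the list were 2.99 against liver, 3.44 against lung and 3.54 against spleen. Besides Slc34a1, Slc7a9 and Cltrn they held the phosphate carrier Slc34a3 (mean 8.48 in kidney), the glucose carriers Slc5a1 (8.67) and Slc5a2 (8.55), the neutral amino acid carrier Slc6a19 (10.05), the dicarboxylate carriers Slc13a2 (10.03) and Slc13a3 (11.81), the peptide carrier Slc15a2 (9.92) and Amn, which anchors the cubilin receptor (11.48). Pdzk1, a scaffold of brush border transporters, read 13.50, 13.63 and 13.56 in cortex and 13.41, 13.47 and 13.23 in medulla, against 10.63, 10.74 and 10.54 in liver, 6.65, 6.85 and 6.75 in lung and 6.63, 6.76 and 6.70 in spleen. Liver thus had an intermediate level, 2.83 ± 0.07 below kidney, while lung and spleen were not well above background. The megalin gene Lrp2, the member that missed the rule, had a kidney mean of 7.14, against 6.88 in liver, 6.75 in lung and 6.81 in spleen, on a probe close to background.

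Basolateral and organic ion carriers gave 11 of 17, with medians of 1.72, 2.56 and 1.81 against liver, lung and spleen. The organic anion transporter Slc22a6 read 11.47, 11.44 and 11.30 in cortex and 10.23, 10.81 and 10.57 in medulla, and was at least 17.3-fold above each other tissue. Slc47a1, which extrudes organic cations, was shared with liver: it read 13.59, 13.85 and 13.90 in cortex and 13.20, 13.65 and 13.25 in medulla, against 12.002, 12.22 and 12.52 in liver, and lay 6.01 ± 0.14 above lung and was at least 105-fold above spleen. The difference from liver was 1.33 ± 0.14, and the groups did not overlap. Of the members outside the rule, the glucose carrier Slc2a2 (10.23 in kidney and 11.43 in liver) and the conjugate export pump Abcc2 (7.95 in kidney and 9.17 in liver) were lower in kidney than in liver.

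Proximal tubule enzymes gave 17 of 31, with medians of 2.40, 2.74 and 3.02. Napsa, an aspartic protease also made in lung, read 13.37, 12.63 and 13.75 in cortex and 14.55, 14.64 and 14.48 in medulla, against 7.79, 7.08 and 7.13 in liver, 11.82, 12.13 and 12.17 in lung and 11.40, 10.46 and 10.98 in spleen. Gpx3, the plasma glutathione peroxidase, read 14.34 to 14.59 in cortex and 14.32 to 14.76 in medulla, and the difference was 6.95 against liver, 1.87 against lung and 4.80 against spleen, each with an SE of 0.18. Keg1 exceeded liver by 3.35 and was at least 133-fold above lung and spleen. Of the 14 members outside the rule, Glyat, Ddc, Ttc36, Anpep, Prodh2, Agxt2, Acsm3 and Pipox were called higher than in lung and spleen but not than in liver, and Dpep1, Cyp4b1 and Xpnpep2 were called higher than in liver and spleen but not than in lung.

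Most genes of the list for metabolism shared with hepatocytes did not separate kidney from liver, or were lower than there. The list of glucose and amino acid metabolism also held urea cycle genes that hepatocytes use. Of its 22 kept genes, 18 were called higher in kidney than in lung, 18 than in spleen, but 1 than in liver, where 13 were called lower. The medians were -1.01 against liver, 2.46 against lung and 2.56 against spleen. At background on all 6 kidney arrays were 4 of the 22, which enter these counts and medians. Fbp1, a control enzyme of gluconeogenesis, read 12.53, 12.44 and 12.54 in cortex and 12.23, 12.17 and 12.48 in medulla, against 12.22, 12.21 and 12.15 in liver, 7.09, 7.05 and 7.01 in lung and 7.13, 6.75 and 6.75 in spleen. Ass1, which forms argininosuccinate, differed from liver by -0.46 ± 0.24 and Fah, the last enzyme of tyrosine breakdown, by -0.42 ± 0.21, whereas both exceeded lung and spleen by 2.59 or more. Khk, ketohexokinase, was the member that met the rule, at 0.63 ± 0.09 above liver. That call was lost without liver array 1 (0.58). Genes of the urea cycle that hepatocytes use, Cps1, Otc and Arg1, had kidney means of 6.72, 6.71 and 6.69, at background, against liver means of 13.23, 10.20 and 13.07.

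**Figure D3:**
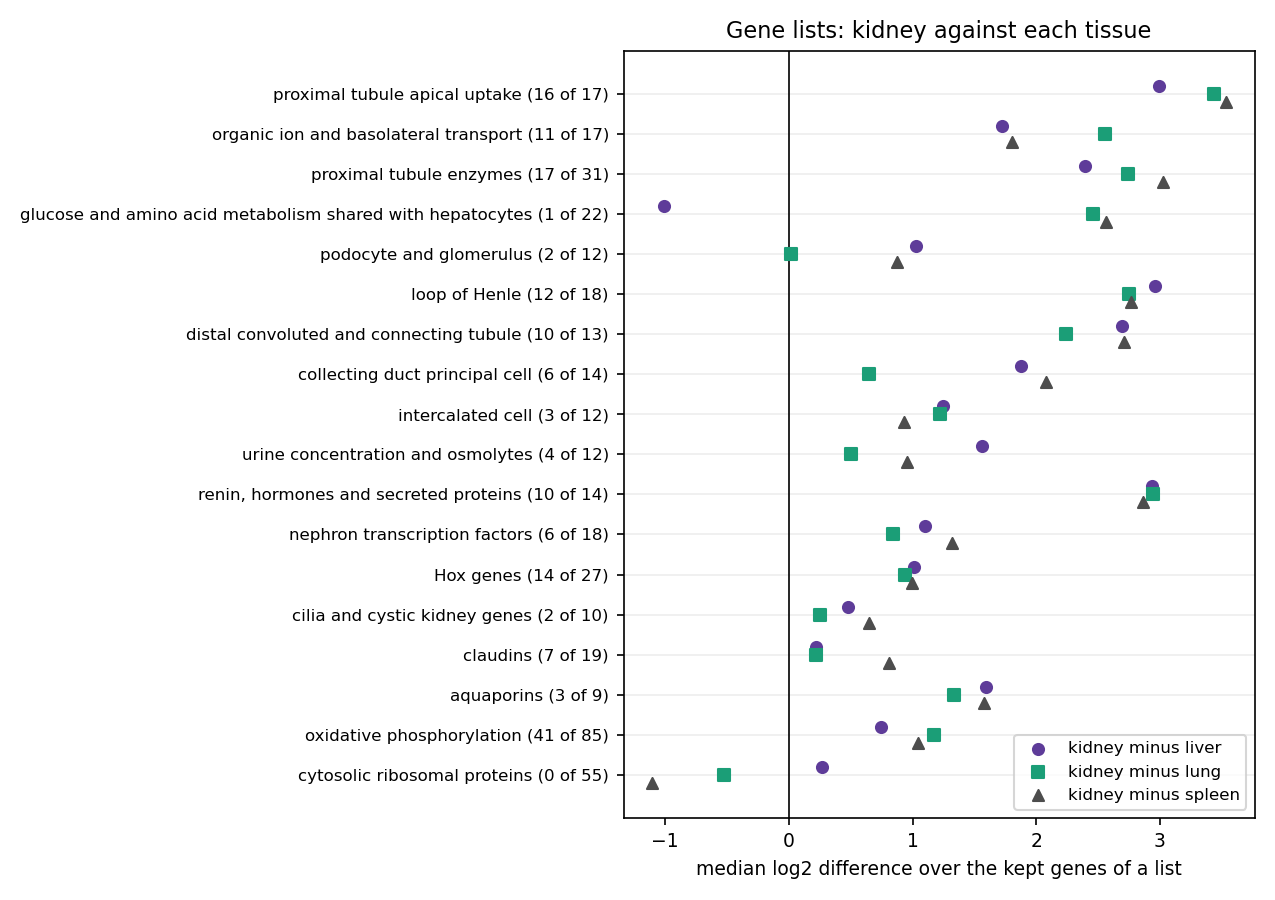
Median log2 difference over the kept genes of each list for kidney minus liver, kidney minus lung and kidney minus spleen (x axis), with the count of kidney-specific genes among kept genes beside each list name. Apical uptake genes of the proximal tubule lie at 2.99 to 3.54 in all 3 comparisons, and the metabolism list lies at -1.01 against liver but above 2 against lung and spleen.

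Loop of Henle genes gave 12 of 18, with medians of 2.96, 2.75 and 2.76. Besides Umod, Slc12a1 and Egf they held the potassium channel Kcnj1 (9.50 in kidney), the magnesium pore claudins Cldn16 (9.53) and Cldn19 (8.10), the chloride channel subunit Bsnd (10.69), the prostaglandin receptor Ptger3 (9.92) and the protein phosphatase inhibitor Ppp1r1a (12.34). Cdh16, the kidney cadherin, read 13.39, 13.36 and 13.27 in cortex and 13.52, 13.31 and 13.40 in medulla, against 8.15, 8.88 and 9.09 in lung, while liver and spleen were not well above background and at least 91.5-fold lower. Lung was the tissue that held a lower second level. Cldn10 behaved alike, 6.25 ± 0.10 above liver and 6.06 ± 0.10 above spleen but 1.64 ± 0.10 above lung.

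Distal convoluted and connecting tubule genes gave 10 of 13, with medians of 2.69, 2.24 and 2.71. They held the thiazide-sensitive cotransporter Slc12a3, the calcium-binding proteins Pvalb and S100g, Klk1, Kl, Fxyd2, the kinase Wnk4 and the potassium channel Kcnj16 (11.28). Atp1b1, the beta subunit of the sodium pump, read 13.90, 14.16 and 14.02 in cortex and 14.06, 14.05 and 13.99 in medulla, against 9.33, 9.53 and 9.81 in liver, 11.35, 12.16 and 11.85 in lung and 8.12, 7.76 and 7.89 in spleen. Cortex and medulla were the same within their spread, and lung was the nearest tissue at 2.24 ± 0.15 below kidney.

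Several collecting duct genes were shared with lung. Of 14 principal cell genes, 6 were kidney-specific, 13 were called higher than in liver and 11 than in spleen, but 7 higher and 5 lower than in lung. The vasopressin-regulated water channel Aqp2 read 9.06, 8.82 and 8.97 in cortex and 10.51, 10.36 and 10.62 in medulla, against 6.74, 6.95 and 6.92 in liver, 6.72, 6.81 and 6.83 in lung and 6.86, 6.82 and 6.70 in spleen. Aqp3 (9.99 in kidney), the glucocorticoid-inactivating enzyme Hsd11b2 (at least 8.22-fold over each tissue) and Fxyd4 (at least 10.7-fold) also met the rule, with the transcription factor Gata3 and the ammonia transporter Rhcg. The epithelial sodium channel subunits did not, since lung was higher: Scnn1a had means of 9.38 in kidney and 10.61 in lung, Scnn1b of 9.34 in kidney and 10.71 in lung, and Scnn1g of 9.78 in kidney and 11.40 in lung.

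Intercalated cell genes, of the acid and base handling cells of the collecting duct, gave 3 of 12. The chloride bicarbonate exchanger pendrin, Slc26a4, read 11.50, 11.38 and 11.30 in cortex and 9.25, 9.96 and 9.87 in medulla, against 7.35, 7.08 and 7.40 in liver, 6.99, 7.70 and 8.20 in lung and 6.75, 6.82 and 6.87 in spleen. The carbonic anhydrase Car12 and the transporter Slc4a9 were the others. The anion exchanger Slc4a1, which red cells also carry, was higher in spleen (difference -3.26 ± 0.23), and the carbonic anhydrase Car2 differed from spleen by -0.09 ± 0.25. The 6 erythroid markers averaged 10.83 to 11.59 on spleen arrays, against 7.87 to 8.37 on kidney arrays, and their part in this was not tested.

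Glomerular genes gave 2 of 12, Col4a4 and Foxc2, and 4 of the 12 were lower in kidney than in lung. Podxl, the podocalyxin of podocytes and vascular endothelium, read 9.79, 9.61 and 9.79 in cortex and 9.002, 9.30 and 9.58 in medulla, against 7.59, 7.43 and 7.77 in liver, 11.11, 10.33 and 10.59 in lung and 7.38, 7.62 and 7.57 in spleen. The 11 endothelial markers averaged 8.36 to 8.68 in cortex and 8.97 to 9.04 in medulla, against 10.54 to 10.74 in lung, and their part in this was not tested.

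Genes for urine concentration gave 4 of 12, namely Slc14a2, Aqp2, Aqp3 and Slc12a1. The constitutive water channel Aqp1 read 12.86, 12.67 and 12.61 in cortex and 13.73, 13.58 and 13.69 in medulla, against 11.13, 11.04 and 11.09 in liver, 13.52, 13.72 and 13.52 in lung and 11.62, 12.84 and 12.63 in spleen. Lung lay within the range of the kidney arrays, and the difference from lung was -0.39 ± 0.19. Aquaporins as a family gave 3 of 9 (Aqp2, Aqp3 and Aqp7). The claudins Cldn2, Cldn4, Cldn8 and Cldn11 were kidney-specific besides those named above, and Cldn2, a paracellular cation pore, was 1.48 ± 0.11 above liver.

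Hormone and secreted protein genes gave 10 of 14, with medians of 2.93, 2.94 and 2.87. The guanylate cyclase ligand Guca2b (11.67 in kidney), the vitamin D receptor Vdr (9.94), the vitamin D inactivating enzyme Cyp24a1 (9.50) and the parathyroid hormone receptor Pth1r (9.81) met the rule. Agt, the angiotensin precursor, was at background in kidney (6.70) against a liver mean of 10.45, and Agtr1a, its receptor, was lower in kidney (9.62) than in liver (10.87). The renin gene Ren1 was not analysed here.

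Patterning and segment regulators also marked the organ. Hox genes, which set position along the body axis, gave 14 kidney-specific genes among 27 kept (51.9%), the highest share of kept genes among the prefixes counted. A probe was present for 38 Hox genes. Of the 27 kept, 12, 11 and 11 were at background in liver, lung and spleen, so the share depends on the filter. By cluster the counts were 5 of 6 for Hoxd, 3 of 5 for Hoxc, 4 of 7 for Hoxb and 2 of 9 for Hoxa. Hoxd8 read 11.54, 11.40 and 11.23 in cortex and 10.99, 11.07 and 11.04 in medulla, against 6.70, 6.67 and 6.71 in liver, 6.75, 6.76 and 6.76 in lung and 6.82, 6.70 and 6.71 in spleen, at least 20.5-fold higher than each. Hoxb7 exceeded liver by 3.33, lung by 2.76 and spleen by 3.00, each ± 0.08. Hoxd10 was at least 8.01-fold above lung and spleen and Hoxc6 at least 6.58-fold above lung. Hoxa5 (means 9.17 in kidney and 10.07 in lung) and Hoxb5 (9.11 and 9.26) were shared with lung, and no Hox gene differed between cortex and medulla by the test.

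Nephron transcription factors gave 6 of 18. Tfap2b, a regulator of the distal nephron, read 9.55, 9.82 and 9.59 in cortex and 9.94, 9.89 and 9.75 in medulla, against 6.86, 6.67 and 6.88 in liver, 6.74, 6.80 and 6.63 in lung and 6.68, 6.68 and 6.74 in spleen. Pax8, Osr2, Gata3, Esrrb and Ppargc1a were the others. Hnf4a, a regulator of proximal tubule and hepatocyte, did not separate kidney from liver, at 0.02 ± 0.11, but lay 4.66 ± 0.11 above lung and 4.57 ± 0.11 above spleen. The bile acid receptor Nr1h4 differed from liver by -0.50 ± 0.14 and exceeded lung and spleen by 3.26 and 3.01. Of 10 kept cilia and cystic kidney genes, 2 were kidney-specific, Bicc1 and Anks6.

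Respiratory chain genes stood out by number rather than by size. Of 85 kept genes of oxidative phosphorylation, 41 were kidney-specific, and 50 were called higher than in liver, 72 than in lung and 63 than in spleen, with 0, 2 and 0 lower. The medians were 0.74, 1.17 and 1.05. Atp5b, the catalytic subunit of the mitochondrial ATP synthase, read 14.51, 14.76 and 14.71 in cortex and 14.53, 14.67 and 14.61 in medulla, against 13.30, 13.48 and 13.40 in liver, 13.33, 13.32 and 13.14 in lung and 13.37, 13.41 and 13.27 in spleen. No array of liver, lung or spleen reached a kidney array, and Cox4i1 and Uqcr10 lay 1.02 to 1.31 above each tissue. The strongest of these probes sit near the top of the scale, which all arrays share (signal 27812), and this bounds the differences that can be seen there.

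Cytosolic ribosomal protein genes gave 0 of 55 in the same arrays. Their medians were 0.27 against liver, -0.53 against lung and -1.11 against spleen, with 10 called higher than in liver, 20 lower than in lung and 44 lower than in spleen. These directions are relative to all probes. When arrays were centred on the ribosomal probes themselves, the median of all probes moved by -0.349 against liver, 0.614 against lung and 1.483 against spleen, and 725 probes were kidney-specific, 534 of them among the 749.

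The test of cortex against medulla called a minority of the 749 transcripts. The rule had removed the 169 probes that missed the fold over some other tissue in 1 region, so a high level in both regions was fixed by the choice. The mean was higher in cortex for 384 and in medulla for 365, and the test of cortex against medulla called 45 higher in cortex (6.01%, beside 0.781% of all kept probes) and 82 higher in medulla (10.9%, beside 1.4%), which left 622 without a call. Over all kept probes 386 were called in either direction (2.18%). All kept probes had a median kidney mean of 7.37, beside 9.99 for the members, so these shares compare probes of unlike signal. The replicate spread of the members was larger than that of all kept probes, with a median SD of 0.154 in cortex and 0.155 in medulla against 0.092 and 0.088. The correlation of the deviations of same-numbered cortex and medulla arrays was 0.5, 0.55 and 0.24. The region test did not pair these arrays. With the numbers as a replicate block it called 142 transcripts, 55 higher in cortex and 87 in medulla.

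The largest differences toward the medulla were those of Nccrp1 and Slc14a2. Nccrp1 read 8.08, 7.42 and 7.996 in cortex and 12.25, 11.74 and 11.85 in medulla, a difference of -4.11 ± 0.16 (limma adjusted p 8.29e-09). Slc14a2, the urea transporter of the inner medullary collecting duct, read 7.54, 7.31 and 7.20 in cortex and 11.13, 10.27 and 10.53 in medulla, -3.29 ± 0.16 (limma adjusted p 8.28e-08). In both genes every medulla array exceeded every cortex array by a wide margin, and the cortex arrays were still above all 9 arrays of the other tissues. Slc14a2 had 3 kept probes, of which this one met the rule.

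Havcr1, known as kidney injury molecule 1, read 8.59, 8.31 and 9.85 in cortex and 11.39, 11.35 and 11.41 in medulla, -2.47 ± 0.29. Without the arrays numbered 1 this difference was -2.30 and was no longer called. Serpina1f (-2.39 ± 0.24) and the brush border metalloprotease Mep1b (-2.33 ± 0.16) followed, as did the carriers Slc22a13 (-2.03) and Slc7a12 (-2.12), the collecting duct genes Fxyd4 (-2.005 ± 0.07) and Aqp2 (-1.54 ± 0.09) and the loop genes Slc12a1 (-1.27 ± 0.10) and Wfdc15b (-0.99 ± 0.11).

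By list, the test called 3 of 17 apical uptake genes higher in medulla and 1 in cortex (median cortex minus medulla 0.20). It called 6 of 18 loop of Henle genes higher in medulla and 1 in cortex (-0.40), and 6 of 12 urine concentration genes higher in medulla and 0 in cortex (-0.81). The apical uptake genes averaged 10.58 to 10.78 on the cortex arrays and 10.43 to 10.63 on the medulla arrays. How far the 2 dissected pieces held the same nephron segments was not tested.

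Of the distal convoluted and connecting tubule genes 4 of 13 were called higher in cortex and 0 in medulla (median 0.63), and of the intercalated cell genes 6 of 12 and 0 (0.63). Klk1b8 read 11.50, 10.53 and 10.36 in cortex and 9.06, 8.76 and 8.85 in medulla, 1.91 ± 0.21, with the same limit on near-identical copies as above. Pvalb, the calcium buffer of the early distal convoluted tubule, read 12.62, 12.68 and 12.22 in cortex and 10.54, 11.27 and 10.82 in medulla, 1.63 ± 0.15. Slc26a4 differed by 1.70 ± 0.24, Enpp6, a choline phosphodiesterase, by 1.54 ± 0.16 and Kl by 1.31 ± 0.12, and the 3 cortex arrays exceeded the 3 medulla arrays for each.

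Leaving out 1 array gave 99 to 132 region calls in place of 127, with the lowest count without medulla array 1. Among the genes named here, those whose region call was lost without 1 array were Pgam2, a phosphoglycerate mutase (1.55 ± 0.27), Klk1b27 (1.13 ± 0.20) and Hsd3b4 (-0.84 ± 0.15). Pgam2 lost its call without cortex array 1 (1.39) or 2 (1.498) or medulla array 1 (1.38) or 3 (1.54). Klk1b27 lost it without cortex array 1 or 2 (1.12 each) or medulla array 1 (0.93), and Hsd3b4 without cortex array 2 (-0.66) or 3 (-0.80) or any medulla array (-0.80, -0.83 and -0.90). Without all arrays numbered 1, Pgam2 (1.22), Klk1b27 (0.91) and Slc7a9 (0.67, beside 0.72) were not called. The count of transcripts called between the regions fell to 65 in place of 127 when all 80 arrays shared 1 estimate of the spread, and to 93 without the arrays numbered 1. Adipoq, the adipocyte hormone, read 11.58, 11.48 and 9.01 in cortex and 6.86, 8.63 and 6.72 in medulla, and the part of adipose markers in cortex differences was not tested.

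**Figure D4:**
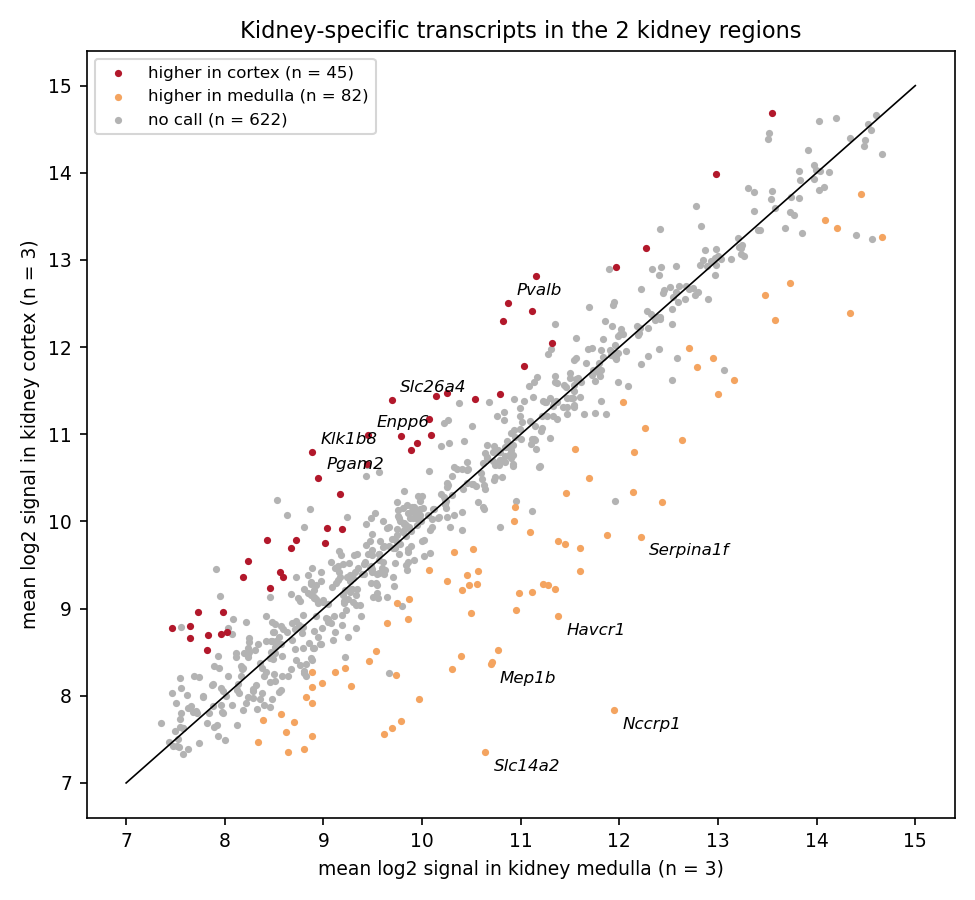
Mean log2 signal of the 749 kidney-specific probes in control cortex (y axis) against control medulla (x axis), n = 3 arrays each, coloured by the limma call. The 45 probes higher in cortex and the 82 higher in medulla lie away from the line of equality, and Nccrp1 and Slc14a2 lie farthest below it.

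Transcripts low in kidney were fewer and their differences were smaller. The 184 probes held 151 named genes, or 148 of the 11886 genes with 1 probe a gene (1.25%), and the smallest of the 3 differences had a median of -0.998, with 7 probes at 4-fold or more and 4 at background on all 6 kidney arrays. Spleen was the highest tissue for 109 of them, liver for 42 and lung for 33. Of 9 macrophage markers 2 met the low rule, as did 1 of 10 neutrophil markers and 1 of 16 hepatocyte markers. Macrophage markers averaged 7.33 to 7.54 in cortex and 7.91 to 8.21 in medulla, against 9.46 to 10.42 in liver, 8.69 to 8.81 in lung and 9.54 to 9.95 in spleen, and their part in these differences was not tested.

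Lcn2, the iron-siderophore binding protein of neutrophils and stressed epithelia, read 7.40, 6.96 and 7.21 in cortex and 9.03, 7.79 and 7.70 in medulla, against 13.04, 11.71 and 10.24 in liver, 11.17, 9.68 and 10.60 in lung and 12.77, 11.35 and 10.12 in spleen. Array 1 was the highest of its tissue in all 5, as it was for the neutrophil markers, and the call against lung (-2.80 ± 0.61) was lost without lung array 1 (-2.46). Lrg1, a secreted leucine-rich glycoprotein, was lower by 5.52 ± 0.25 than in liver, 3.47 ± 0.25 than in lung and 2.68 ± 0.25 than in spleen on the log2 scale. Hp, the haemoglobin scavenger haptoglobin, read 7.89, 8.25 and 7.27 in cortex and 7.10, 7.08 and 6.87 in medulla, against 14.53, 14.28 and 13.45 in liver, 13.23, 13.56 and 13.05 in lung and 10.94, 9.06 and 8.59 in spleen.

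Gch1, the entry enzyme of tetrahydrobiopterin synthesis, read 7.05, 7.32 and 7.30 in cortex and 7.11, 7.06 and 7.11 in medulla, against 11.38, 11.54 and 11.48 in liver, 9.85, 9.17 and 9.12 in lung and 10.23, 10.86 and 10.67 in spleen. The differences of Gsdmd, the pore protein of pyroptosis, were -2.50, -2.42 and -2.61 against liver, lung and spleen with an SE of 0.17. Ctss, a lysosomal protease of antigen-presenting cells, differed by -1.94, -2.49 and -3.09 with an SE of 0.36, and Tgfbi, a matrix protein, by -2.09, -3.23 and -3.30 with an SE of 0.21. The complement component C6 lay between 6.72 and 6.93 on the kidney arrays, near background, and 8.499 or higher on each array of the other tissues.

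In the exposed mice the same rule was applied to arrays that had played no part in choosing the 749. At 1 h, 612 of them met it in the 1.7 kBq group (81.7%, beside 4.01% of all kept probes) and 582 in the 105 kBq group (77.7%, beside 4.08%), and at 6 h 624 met it in the 1.7 kBq group (83.3%, beside 4.21%). In the 7.5 kBq group at 6 h 491 met it (65.6%, beside 3.08%), and in the 1.7 kBq group at 7 days 268 met it (35.8%, beside 1.54%). The rule was met in all 5 exposed groups by 231 transcripts and in none by 61, or by 466 and 38 without the arrays described next, and the smallest difference was above 0 in every group for 737.

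The 2 lower counts held arrays that stood apart from others of their label. At 7 days medulla array 1 had a hepatocyte marker mean of 13.08, 6.82 for Umod and 6.70 for Slc34a1, and spleen array 1 had an exocrine pancreas marker mean of 13.17. Without these, 638 of the 749 met the rule at 7 days (85.2%). In the 7.5 kBq group cortex array 1 had a hepatocyte marker mean of 11.16, and lung array 1 read 12.42 for Umod and 13.18 for Slc34a1, against 6.78 and 6.72 on lung array 2. Without the cortex array 497 met the rule (66.4%), and without both 548 (73.2%), where cortex and lung had 1 array left and were assumed to vary like the other tissues. The library labels of these arrays were kept as given.

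Single members differed in this, as Umod and Khk show. The smallest difference of Khk was also low in some groups without arrays that stood apart. The smallest measured difference of Umod, whose control arrays of the other tissues were at background, was 7.65, 7.72 and 7.75 in the 1.7 kBq group at 1 h, the 105 kBq group at 1 h and the 1.7 kBq group at 6 h, beside 7.71 in control mice. It was 4.86 in the 7.5 kBq group, or 7.71 without the cortex and lung arrays, and 6.28 at 7 days, or 7.57 without the medulla and spleen arrays. Khk, which had met the rule narrowly, had 2 member probes. The one described above had smallest differences of 0.35, -0.17, 0.24, 0.37 and 0.34 in the 1.7 kBq 1 h, 105 kBq 1 h, 1.7 kBq 6 h, 7.5 kBq 6 h and 1.7 kBq 7 day groups, or 0.38 and 0.42 in the last 2 without the arrays that stood apart. The other read 0.76, -0.18, 0.24, 0.30 and 0.27 in the same groups, or 0.34 and 0.44, beside 0.69 in control mice. Of the 184 low transcripts, 90, 117, 116, 84 and 30 met their rule in the same order of groups, beside 0.701%, 0.854%, 0.877%, 0.588% and 0.198% of all kept probes. Without the arrays that stood apart, 74 met it in the 7.5 kBq group (beside 0.543%) and 121 at 7 days (beside 0.866%).

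**Figure D5:**
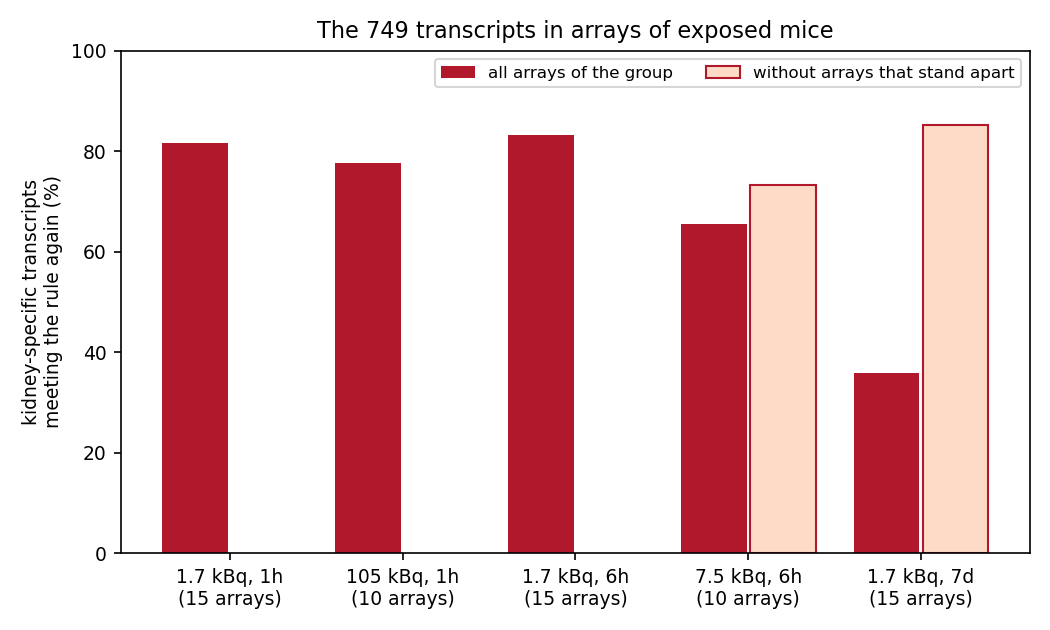
Share of the 749 kidney-specific transcripts of control mice that met the same rule in arrays of each exposed group (y axis, percent), with all arrays of the group (dark bars) and, for 7.5 kBq at 6 h and 1.7 kBq at 7 days, without the arrays that stood apart (light bars). The light bars stand at 73.2% and 85.2%, beside 65.6% and 35.8% with all arrays.

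The edge of the rule fell among transcripts with small differences. The smallest region difference, that of the lower kidney region over the nearest tissue, was just above the limit for 4931406C07Rik (0.586) and for the cell cycle transcription factor E2f5 (0.586), and for 4931406C07Rik the call against liver was lost without cortex array 1 (0.58). Just outside were Lama1, a laminin chain of basement membranes (0.582), and Map10, a microtubule protein (0.584). The mean signal of the 749 probes in kidney ran from 7.45 to 14.63 with a median of 9.99, beside a median of 7.37 for all kept probes.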

How the data were processed

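Signals of 80 arrays were read from the table of normalised values that the authors deposited as intensity on a linear scale, background not subtracted. Per the methods, images and quantile normalisation were handled with Illumina software and BASE, with no version given in any source used here, and technical triplicates were run. The deposited intensity table has 1 column per mouse and tissue, and the sorted values of its columns differ by at most 1.05. A table of signals before normalisation, with 80 signal and 80 detection columns, was not used here because its column names are not paired with samples.

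Log2 intensities of the 15 control arrays were fitted with limma 3.58.1 in R 4.3.3 (5 tissue means, eBayes), with kidney as the mean of the cortex and medulla means, and p-values were adjusted by Benjamini-Hochberg within each comparison. The thresholds, adjusted p under 0.01 and at least 1.5-fold, are those of the methods. The background cutoff was the mode of all values (signal 105.45) plus 2.33 times the SD of values under it (4.455), which gave 115.83, and 55% of values lay above it. A probe was kept if at least 3 of the 15 control arrays exceeded it. The number of arrays limits the precision. Symbols came by gene number from the reference table, which named 23978 probes and left 1719 unnamed. A gene with several probes was represented by the one with the highest mean. Analyses were also run with Python 3.11.15, pandas 2.3.3 and matplotlib 3.10.9, and the fits were tested on simulated data.

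Genes named with values were the 20 kidney-specific and 8 kidney-low genes with the largest smallest difference, the 4 largest differences of each comparison, the 4 highest genes of each list and 3 of each marker list, the 5 largest region differences each way, and the 2 genes on each side of the rule. Other list and family members were named after their values were seen. The members and lists were chosen with earlier results of these data known.

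Alternatives were a replicate block, other filters, background and centring, other thresholds, 1 region alone, all 80 arrays in the fit and each array left out. Averaging cortex and medulla by number, leaving out the arrays numbered 1 and leaving out a lung array with tubule transcripts were chosen after seeing the data. Replicate numbers were checked: same-numbered cortex and medulla arrays deviated together (0.5, 0.55 and 0.24), while kidney and the other tissues ranged from -0.085 to 0.3.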

Additional observations from a re-analysis of the deposited data

Results flagged for a closer look

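The 10 genes with the largest called region differences, 5 each way, are listed here. They were picked for size among 127 called probes, so the sizes are a description, and Pgam2 and Havcr1 lose the call when arrays are left out. Cortex minus medulla was 1.91 for Klk1b8, 1.70 for Slc26a4, 1.63 for Pvalb, 1.55 for Pgam2 and 1.54 for Enpp6, and -4.11 for Nccrp1, -3.29 for Slc14a2, -2.47 for Havcr1, -2.39 for Serpina1f and -2.33 for Mep1b.

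In 9 of 147 genes tested, 1 of the 6 kidney arrays lay far from the other 5 relative to the range of the 6. Chance gives about 1 in 20 for 6 independent arrays of 1 kind. These were cortex and medulla arrays of the same mice, so that rate does not apply to this share. Several of the gaps are small. Cortex array 1 was high for the adipocyte fatty acid binding protein Fabp4 (9.22, next 7.32) and low for the taurine carrier Slc6a6 (12.17, next 12.55). Cortex array 2 was high for Bbs4 (8.67, next 8.52) and the steroid enzyme Cyp11a1 (7.07, next 6.88). Cortex array 3 was low for Slc4a1 (9.81, next 10.57) and read 6.84 for the surfactant gene Sftpc (next 6.72). Medulla array 3 read 7.07 for the club cell gene Scgb1a1 (next 6.75). It read 6.61 for Cxcl15 (next 6.67) and 6.61 for the neutrophil gene Mpo (next 6.71). These values of medulla array 3 lay near background.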

How the results depend on the processing

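Under 31 alternatives, 11013 of 11215 comparisons of a named difference kept direction and call, 198 lost the call and 4 reversed. A looser adjusted p could not lose a call, and 1 probe a gene used the same probes, and each kept all 365 named differences. Many named differences were picked for size, so this tally is a description. Leaving out 1 array gave 726 to 758 kidney-specific probes, 151 to 191 low probes, and 99 to 132 region calls (34 to 48 higher in cortex, 65 to 85 in medulla). It gave 3739 to 3941 probes against liver (2099 to 2198 higher, 1640 to 1743 lower), 4561 to 4742 against lung (2165 to 2293, 2357 to 2472) and 5748 to 5844 against spleen (2755 to 2802, 2988 to 3043).

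With the numbers as a replicate block, 752 probes were kidney-specific (747 shared) and 193 low (181 shared), and no count moved by over 1.5 times. With cortex and medulla of 1 number averaged the counts were 734 and 145. Cortex alone gave 896 and medulla alone 919.

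At 2-fold or more the counts were 421 kidney-specific and 76 low probes, 2240 against liver (1177 higher, 1063 lower), 2797 against lung (1376 and 1421), 3494 against spleen (1773 and 1721), 78 between regions (25 and 53), and 380, 375, 399, 292 and 164 in the exposed groups. Subtracting the background mode gave 5863 probes against liver (3295 higher), 3425 higher than lung, 415 low and 54 higher in medulla. All 80 arrays in the fit gave 65 region calls (27 and 38). Without the arrays that stood apart, 638 met the rule at 7 days.

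Centring on ribosomal probes gave 1256 higher and 3626 lower than liver, 10806 against lung (9692 and 1114), 16147 against spleen (15661 and 486), 93 low and 73 higher in cortex. The share called higher was then 25.7%, 89.7% and 97% against liver, lung and spleen, beside 55.9%, 48.1% and 48%. It reversed the spleen differences of Hba-a1 (0.39), Rpl38 (0.86) and Tnni2 (0.59), and cortex alone that of Cryab against lung (-0.026). Centring moved all differences of a comparison by 1 constant, -0.349 against liver, 0.614 against lung and 1.483 against spleen for the median. Those against lung and spleen exceed the 1.5-fold limit, so the counts move with them. Why the ribosomal probes differed between tissues, and the cause of the Cryab change, was not tested. Low signals near background and the shared top of the scale limit small and large differences.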
